A study of Mus musculus with 8 samples.

Results

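Secreted hormones and endoplasmic reticulum (ER) derived factors that are known to respond to cell stress were followed in 3T3-L1 adipocytes, a mouse fibroblast line turned into fat cells in culture, with and without tunicamycin. The genes were a list of 6, namely Gdf15, Fgf21, Adm2, Stc1, Stc2 and Manf (also written Armet). The members were the probe sets that the platform annotation gives to 1 of these genes and to no other gene. This rule found 8 of the 45101 probe sets on the array, for 5 of the 6 genes: 1 each for Fgf21, Adm2 and Manf, 2 for Stc1 and 3 for Stc2. The annotation used here assigned no probe set to Gdf15 alone, so Gdf15 was not analysed. Probe sets given to several genes were not searched for the listed ones. Tunicamycin inhibits the enzyme that starts N-linked glycan assembly, and unglycosylated proteins then misfold in the ER. Untreated control cells were hybridised to 4 arrays, of which 1 was for 4 h, 2 were for 8 h and 1 was for 12 h. Cells exposed to tunicamycin had 4 arrays too, with 1 for 4 h, 1 for 8 h and 2 for 12 h. The cells of all groups were the same line, and neither the dose nor any vehicle given to the controls is stated in the sources used here. The labels call the replicates biological and say nothing more of how the cultures were separated. Only the 8 h controls and the 12 h tunicamycin cells were replicated. The tests made here take their spread from these 2 groups and borrow from that of other genes. The test over all times also counts differences of the effect between times as spread. At 4 h neither arm was replicated, so the p-values there rest on borrowed spread.

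The listed genes sit at the outlet of the unfolded protein response, the set of pathways by which a cell answers misfolded protein in the ER. One branch runs through the kinase PERK, encoded by Eif2ak3, to the transcription factors ATF4 and CHOP, and is known to drive Fgf21, Gdf15 and, in neuronal and fibroblast lines, Stc2. The branches of XBP1 and ATF6 drive ER chaperones and also Manf. Gdf15 and Fgf21 are circulating hormones that act on feeding and metabolism, Adm2 (intermedin) is a vasoactive peptide of the calcitonin family, Stc1 and Stc2 are stanniocalcins, glycoprotein hormones first known from calcium balance in fish, and Manf is a small ER protein that binds the chaperone BiP and is released from stressed cells.

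Of the 5 genes measured, Manf rose strongly with tunicamycin, the better measured probe set of Stc1 fell, Stc2 was barely above noise and was not called, and Fgf21 and Adm2 were not above noise on any array. The noise level of an array was taken as the size of the 5th percentile of its deposited values below 0, since background-subtracted values scatter around 0. It ran from 19.5 to 40.6 intensity units over the 8 arrays. Of the 8 member probe sets, 5 lay at or under that level on at least 4 of the 8 arrays and are called near the detection limit here: those of Fgf21 (1422916_at) and Adm2 (1442856_at), 1 of Stc1 (1421984_at) and 2 of Stc2 (1419503_at and 1449484_at). Only 2 probe sets were above it on all 8 arrays, namely 1428112_at of Manf, at 43.2 to 275 times the noise level, and 1450448_at of Stc1, at 5.23 to 20.5 times. The remaining one, 1445186_at of Stc2, straddled it at 0.655 to 1.42 times.

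**Figure D1:**
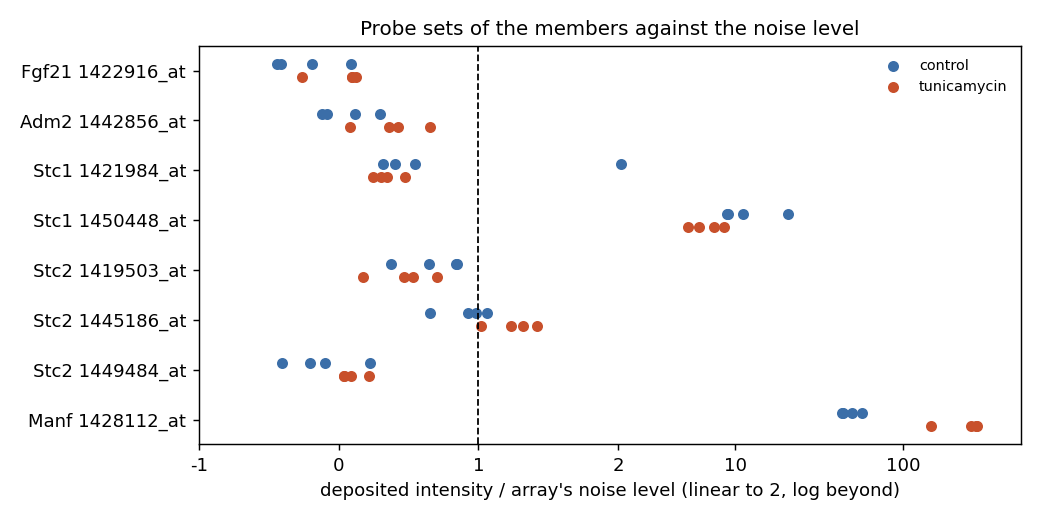
Deposited intensity of each member probe set divided by the noise level of its array (x axis, linear up to 2 and logarithmic beyond), with 1 point per array and the 4 control and 4 tunicamycin arrays in separate colours. The dashed line marks the noise level, and only Manf and 1450448_at of Stc1 lie to its right on all 8 arrays.

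The arrays differed in scale, with mean deposited intensities of 114 to 257, and were quantile normalized before any comparison. The brightest probe set by mean log2 value stood for each gene, and 10916 of 18194 genes passed a filter on that mean and were tested with limma. Of the 5 measured genes, 3 passed (Manf, Stc1 and Stc2), while Fgf21 and Adm2 fell below the filter and are described without a test. Over all times 2 of these 3 were called at an adjusted p under 0.05, beside 20.7% of all tested genes. Fold changes below are tunicamycin over control on the scale log2(normalized intensity + 2.956), so that changes of dim genes come out too small. As for the cells themselves, 6 of the 7 adipocyte markers with a probe set were above noise on all 8 arrays (Adipoq, Fabp4, Pparg, Cebpa, Lpl and Cidec) and the hormone gene Lep on none. All 7 fibroblast or preadipocyte markers were also above noise on all arrays, and the share of undifferentiated cells was not tested. Of 4 macrophage markers, Csf1r was above noise on all 8 arrays, Adgre1 on 7, and Cd68 and Ptprc on none. None of the 3 endothelial markers was above it on any array.

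Manf was the member with the largest change. Its normalized intensity in controls was 1294 at 4 h, 1381 and 1313 at 8 h, and 1372 at 12 h. With tunicamycin it was 3906 at 4 h, 8218 at 8 h, and 8152 and 8894 at 12 h. The controls hardly moved, every tunicamycin array lay above every control, and the 4 h tunicamycin array lay well under the later ones. The mean went from 1340.0 ± 43 to 7293 ± 2283 (SD, n = 4 arrays each). With time in the model the log2 fold change was 2.34 (SE 0.164, 95% interval 1.97 to 2.71, adjusted p = 6.42e-05), or 5.06-fold. Its rise was the 24th highest fold change among the 10916 tested genes. Arrays of one arm lying wholly on one side of the other arm was in itself common here, at 23.4% of tested genes.

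The rise of Manf was present at the first time point and was larger later. At 4 h it was 3.01-fold (log2 fold change 1.59, SE 0.131, adjusted p = 0.00204), where only 0.394% of tested genes were called. It was 6.09-fold at 8 h (2.61, SE 0.113, adjusted p = 1.34e-05) and 6.2-fold at 12 h (2.63, SE 0.113, adjusted p = 1.06e-05), against backgrounds of 18.4% and 21% called. The effect at 12 h exceeded that at 4 h by 1.04 on the log2 scale (95% interval 0.64 to 1.44, adjusted p = 0.0224), and that at 8 h exceeded it by 1.02 (0.62 to 1.41), with an adjusted p = 0.0514. Between 8 h and 12 h the difference was 0.02 (95% interval -0.34 to 0.39, adjusted p = 0.967). Over the 3 times together the effect of Manf differed by limma's F test with an adjusted p = 0.0414, a call that 1.72% of tested genes shared. That call was lost on leaving out either 8 h control (adjusted p = 0.106 without replicate 1 and 0.109 without replicate 2) or either 12 h tunicamycin array (0.0583 and 0.0585). It was lost in 10 of 12 alternatives in all, among them the deposited scaling (adjusted p = 1), median centring (0.15), no filter (0.213) and no intensity trend (0.307). The 4 h call was lost with the deposited scaling kept (log2 fold change 1.02, adjusted p = 0.938). It was also lost with no filter, with every probe set tested on its own and with no intensity trend, and held in 8 of 12 alternatives. In the authors' deposited table Manf had a ratio of 3.12 for 4 h, 7.06 for 8 h and 6.81 for 12 h, and all 3 p-values were listed as 0. The one for 4 h, with 1 array per arm, cannot measure spread between cultures.

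**Figure D2:**
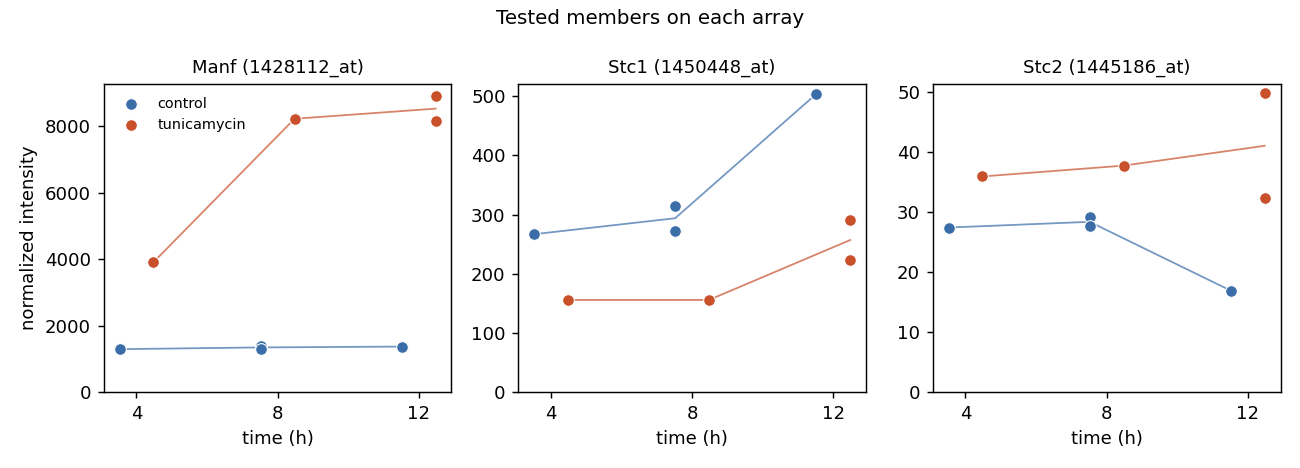
Normalized intensity (y axis, from 0, separate scale in each panel) against time in hours for the probe sets representing Manf, Stc1 and Stc2, with 1 point per array, arms offset sideways for legibility, and lines through the group means. Manf with tunicamycin rose from 3906 at 4 h to between 8152 and 8894 at 12 h over flat controls, while for Stc1 each tunicamycin array lay below the control or controls of its own time.

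The genes whose levels over the 8 arrays were most like those of Manf were also ER genes. Creld2, an ER protein with chaperone-like activity that is secreted as well, had a Pearson correlation of 0.999 with Manf over the log2 values of the 8 arrays. Hsp90b1, the ER chaperone GRP94, and Edem1, which helps clear misfolded glycoproteins, both had 0.995. The arrays share the treatment and the normalization, so these correlations describe likeness only. Creld2 went from a mean of 223 to 4959.9, which is 4.20 on the log2 scale (SE 0.265). Hsp90b1 rose by 1.24 (SE 0.114) and Edem1 by 2.22 (SE 0.222), and all 3 were called, with adjusted p up to 0.000453.

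Promoter sequences of RefSeq (build GRCm38.p6, 250 bases before to 50 after a gene's start) were searched for elements of the stress response on both strands. The elements were the ER stress element, which is CCAAT, 9 bases of any kind and CCACG, and its second form, which is ATTGG, 1 base of any kind and CCACG. They also included the UPR element TGACGTGG and the C/EBP-ATF response element TGATGNAA, to which ATF4 and CHOP dimers can bind. Of the 6 listed genes 4 had a promoter in the table (Fgf21, Gdf15, Adm2 and Stc2), while Stc1 and Manf did not. Among the genes most like Manf, the promoters of Creld2 and Hsp90b1 held the ER stress element, Creld2 once and Hsp90b1 at 2 places, and that of Edem1 held none of the searched letters. The element occurs in 0.119% of the 32851 promoters in the table. These stretches are shown because they belong to 2 of the genes that tracked Manf most closely, with the matching letters, gap included, in capitals; the first lies at chr15:88819479-88819578 on the plus strand and the second at chr10:86705523-86705666 on the minus strand.
Creld2: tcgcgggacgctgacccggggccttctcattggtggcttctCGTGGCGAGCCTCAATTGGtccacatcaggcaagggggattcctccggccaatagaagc
Hsp90b1: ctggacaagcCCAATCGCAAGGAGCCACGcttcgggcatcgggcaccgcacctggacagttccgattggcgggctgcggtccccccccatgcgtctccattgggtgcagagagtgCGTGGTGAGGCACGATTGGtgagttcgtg
The Creld2 match and the second of Hsp90b1 read as the element on the opposite strand. A match is a description of letters and not evidence of binding.

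Stc1, which encodes stanniocalcin-1, moved the other way. The normalized intensity of 1450448_at in controls was 267 at 4 h, 315 and 273 at 8 h, and 504 at 12 h. With tunicamycin it was 156 at 4 h, 156 at 8 h, and 290.3 and 224 at 12 h. The 12 h control was the highest array, and the 12 h tunicamycin arrays overlapped the earlier controls, but at each time every tunicamycin array lay below the controls of that time. The mean went from 339 ± 112 to 207 ± 64.5 (SD, n = 4 arrays each), and the log2 fold change over all times, with time in the model, was -0.89 (SE 0.129, 95% interval -1.18 to -0.60, adjusted p = 0.00236), 1.85-fold lower. A consistent side of the same-time controls was found in 38.9% of tested genes.

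By time the fall of Stc1 was called at 8 h (log2 fold change -0.90, SE 0.2, adjusted p = 0.0168) and at 12 h (-0.97, SE 0.2, adjusted p = 0.0107). At 4 h the value was -0.76 (SE 0.231, adjusted p = 0.259), and it was not called. No difference between times was detected (limma F test, adjusted p = 0.9) and the 95% interval of the 12 h value minus the 4 h value was -0.91 to 0.49. Over all times the value stayed between -0.94 and -0.82 on leaving out any 1 array and was called in each case. These are not all separate checks, because leaving out a group's only array takes its time out of the estimate. Thus the value of -0.84 without the 12 h control was also that of the 4 h and 8 h arrays alone. On the 12 h arrays alone it was -0.97. The call at 8 h was lost without control 8 h replicate 1 (adjusted p = 0.0956). Among all settings tried, the 8 h call held in 6 of 12 alternatives and the 12 h call in 7 of 12. In the authors' deposited table the ratio for this probe set was 0.605 at 4 h (p-value 4e-05), 0.544 at 8 h (1.67e-08) and 0.471 at 12 h (3.71e-18). With 1 array per arm at 4 h, the authors' p-value there cannot measure spread between cultures.

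The other probe set of Stc1, 1421984_at, was made from the same sequence accession and was near the detection limit. It was above noise on 1 array, control 8 h replicate 1, at a deposited 53.3, while its other 7 values ran from 7.5 to 21.2. With the mean of both probe sets in place of the brighter one, Stc1 was at -0.73 over all times and was not called (adjusted p = 0.123), and it was at -0.29 at 12 h.

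One of the 2 RNA quality ratios lay higher with tunicamycin at each time. The marker sums of the arms overlapped, though 3 adipocyte markers were called lower. The ratio of 3' to 5' signal for beta-actin was 2.81 on the 4 h tunicamycin array against 1.82 in its control, 1.68 against 1.54 and 1.57 at 8 h, and 1.71 and 1.67 against 1.51 at 12 h. For Gapdh the ratio was 1.11 against 0.936 at 4 h and 0.971 against 0.857 and 0.873 at 8 h, but 0.902 and 0.817 against 0.909 at 12 h. Without the 4 h tunicamycin array Stc1 was at -0.94 and Manf at 2.62, both called. The hybridisation controls BioC and BioB also differed by time, with a ratio of BioC to BioB of 3.5 to 3.94 at the first 2 times and of 1.52 to 1.6 at 12 h. Manf was at 2.17 on the earlier arrays alone and at 2.63 on the 12 h arrays alone, both called. The summed level of the 7 adipocyte markers was 31159 to 35057 in controls and 26332 to 34214 with tunicamycin, with 3 of 6 tested markers lower and 0 higher, where 9.68% of all tested genes were called lower and 11.1% higher. For the 7 fibroblast or preadipocyte markers it was 19377 to 24456 and 17018 to 21172, with 1 of 7 higher and 1 lower. The 4 macrophage markers summed to 134 to 396 in controls and 151 to 346 with tunicamycin, with 0 of 2 tested called, and the 3 endothelial markers to 12 to 17 and 12 to 27. In bulk RNA, fewer cells of one type and less RNA per cell cannot be told apart, and the part of these differences in the results was not tested.

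The genes most like Stc1 over the 8 arrays were Hdac6, a cytoplasmic deacetylase, at a Pearson correlation of 0.989, Marcks, a membrane-bound actin-linked protein, at 0.983, and Cypt3 at 0.978. Of these Marcks fell, by 0.68 on the log2 scale (SE 0.0897, adjusted p = 0.00153), from a mean of 3099.8 to 2079. Hdac6 had a log2 fold change of -0.33 (adjusted p = 0.0971) and Cypt3 of -0.42 (adjusted p = 0.199), both uncalled.

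**Figure D3:**
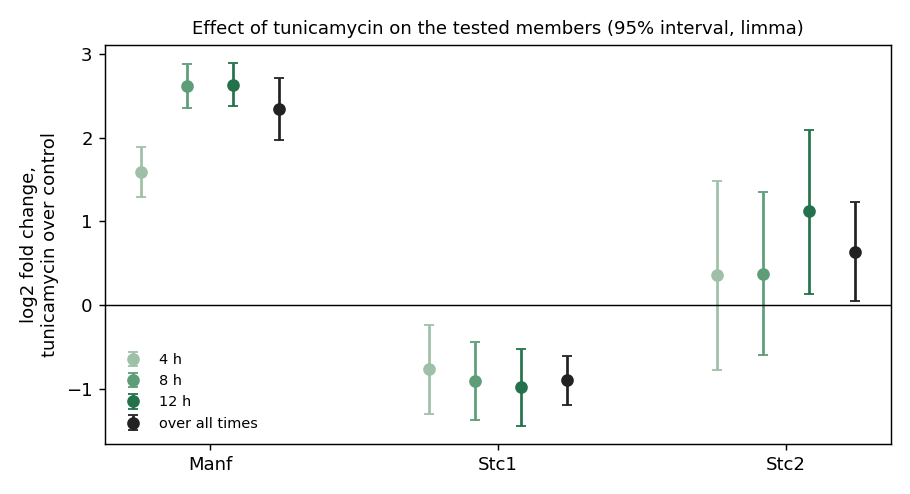
Log2 fold change of tunicamycin over control (y axis) for Manf, Stc1 and Stc2 at 4 h, 8 h, 12 h and over all times, with 95% intervals from limma. The intervals of Manf lie above 0 and those of Stc1 below 0 at each time, while those of Stc2 span 0 at 4 h and 8 h.

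Stc2 encodes stanniocalcin-2, which binds and inhibits the protease PAPP-A and so limits the release of insulin-like growth factors. Its brightest probe set, 1445186_at, had normalized intensities in controls of 27.4 at 4 h, 29.1 and 27.6 at 8 h, and 16.9 at 12 h. With tunicamycin they were 35.9 at 4 h, 37.7 at 8 h, and 49.7 and 32.3 at 12 h. All 4 tunicamycin arrays lay above all 4 controls, but only after normalization, since the deposited values of the arms overlapped (15.5 to 39.8 in controls and 27.7 to 40 with tunicamycin). Normalized arms lying wholly apart, in either direction, were found in 23.4% of tested genes. It was above noise on 4 of 4 tunicamycin arrays and 1 of 4 control arrays. With the 10th percentile in place of the 5th as noise level, it was above on 7 of the 8 arrays, all but the 12 h control. The log2 fold change over all times was 0.64 (SE 0.265, adjusted p = 0.114), so it was not called, and its 95% interval ran from 1.03-fold to 2.35-fold. Leaving out the 12 h control moved it to 0.37 (adjusted p = 0.461), and the deposited scaling and the mean of its 3 probe sets each gave 0.31. Neither was it called at 4 h (0.36, and -0.20 with the deposited scaling kept), at 8 h (0.38) or at 12 h (1.12, SE 0.425, adjusted p = 0.101).

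The other probe sets of Stc2, both made from one further sequence accession, were above noise on none of the 8 arrays. For 1419503_at the deposited values ran from 4.96 to 34.3 and the difference over all times was -0.40 (SE 0.509). For 1449484_at they ran from -9.48 to 5.71 and the difference was 0.70 (SE 0.458). The authors' deposited table gave 1445186_at a ratio of 1.24, 1.25 and 1.58 at 4 h, 8 h and 12 h, with p-values of 0.554, 0.473 and 0.262. The genes most like Stc2 in level were Lrba (Pearson correlation 0.993 over the 8 arrays), Tmem68 (0.972) and Slc25a39 (0.970), none of them called. Their log2 fold changes were 0.24, 0.35 and 0.25, and those of Lrba and Slc25a39 turned to -0.09 and -0.15 with the deposited scaling kept.

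Fgf21, which encodes a metabolic hormone and a known target of ATF4, gave no signal above noise. The deposited intensity of 1422916_at in controls was -7.34 at 4 h, 2.2 and -16.7 at 8 h, and -10.4 at 12 h. With tunicamycin it was 2.25 at 4 h, 4.01 at 8 h, and 1.87 and -7.41 at 12 h. These values scatter around 0, with 4 of the 8 at or below it, and the highest reached 0.124 of its array's noise level. A change of Fgf21 RNA below that level was not detectable on these arrays. With no filter, its difference on the log2 scale was 0.72 (SE 0.318, adjusted p = 0.264), which is no fold because values at or below 0 enter it. The authors' deposited table gave ratios of 2.3, 2.57 and 2.63 at 4 h, 8 h and 12 h, with p-values of 0.583, 0.392 and 0.45.

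The Fgf21 promoter is shown because it holds the C/EBP-ATF response element that none of the other 3 members in the table holds within this window. It is a 100-base stretch on the minus strand at chr7:45615576-45615675, with the 8 matching letters, which read TGATGCAA on the opposite strand, in capitals.
Fgf21: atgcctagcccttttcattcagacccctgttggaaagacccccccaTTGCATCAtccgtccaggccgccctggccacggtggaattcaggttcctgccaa
The match begins at position -139 from the start site. These letters occur in 3.97% of all promoters in the table, and the promoters of Gdf15, Adm2 and Stc2 held no match to any of the 4 elements. No match says only that the letters are not in this window.

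Adm2, the vasoactive peptide intermedin, was likewise under the noise level on every array. Deposited intensities of 1442856_at in controls were -4.51 at 4 h, 7.55 and 4.68 at 8 h, and -1.97 at 12 h. With tunicamycin they were 9.76 at 4 h, 2.71 at 8 h, and 12.7 and 10.1 at 12 h. The tunicamycin values were the higher ones at 4 h and 12 h and the lower ones at 8 h, and none passed 0.652 of its array's noise level. With no filter the difference was 1.38 (SE 0.716, adjusted p = 0.334), again no fold. In the authors' deposited table the ratios were 2.07 at 4 h, 0.85 at 8 h and 2.35 at 12 h, with p-values of 0.515, 0.895 and 0.33.

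Receptors and partners of these factors were examined next, as adipocytes are both a source and a target of some of them. Of 14 such genes 11 were tested, with 0 higher and 4 lower and a median log2 fold change of -0.31, beside 11.1% of all tested genes called higher, 9.68% called lower and a median of all tested genes of -0.00801. Lower were the FGF receptor genes Fgfr3 (-0.98, SE 0.24, adjusted p = 0.0197) and Fgfr2 (-0.83, SE 0.209, adjusted p = 0.0213), Ramp2, which pairs with the calcitonin receptor-like receptor that intermedin uses (-0.60, adjusted p = 0.0457), and Nptn, which encodes neuroplastin, reported as a receptor of Manf (-0.31, adjusted p = 0.0389). Klb, the co-receptor through which Fgf21 acts on fat cells, was at -0.02 on the same scale (SE 0.127, adjusted p = 0.928), and Fgfr1, its usual partner there, at -0.51 (adjusted p = 0.126). The 4 calls were weak: the number lower ran from 0 to 4 on leaving out 1 array in turn. Fgfr3 lost its call when the 12 h control or the 8 h tunicamycin array was left out (adjusted p up to 0.168). Fgfr2 did so for these, for control 8 h replicate 1 and for either 12 h tunicamycin array (up to 0.15), Nptn for each of the 6 arrays later than 4 h (up to 0.208), and Ramp2 for each of the 8 (up to 0.188). With probe sets averaged within each gene, Fgfr3 was at -0.52, Fgfr2 at -0.53 and Nptn at -0.16, none of them called.

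Relatives of the members were mostly dim. Of 9 related hormones and factors, 3 were tested, with 2 higher and 0 lower and a median of 0.57. Of all tested genes 11.1% were called higher and 9.68% lower. The 2 higher were Creld2, given above, and Adm, which encodes adrenomedullin, a relative of intermedin. Adm went from 102 ± 22.6 to 169.6 ± 36.1 (SD, n = 4 arrays each), which is 0.57 on the log2 scale (SE 0.133, adjusted p = 0.0154). Leaving out the 8 h tunicamycin array (adjusted p = 0.128) or the 12 h control (0.0675) ended the call, and with the deposited scaling Adm was at 0.27 (0.659). Fgf23 was tested but above noise on 0 arrays, and Cdnf, the paralogue of Manf, had no probe set named for it alone. Of the 3 KDEL receptors, which return escaped ER proteins and can bind the tail of Manf, Kdelr3 was called higher (0.78, SE 0.226, adjusted p = 0.0363). Kdelr1 (-0.24) and Kdelr2 (0.26) were not, for a list median of 0.26. Kdelr3 lost its call when any 1 of the 6 later arrays was left out (adjusted p up to 0.222) and with the deposited scaling (0.51, 0.366), and it was at 0.35 without the 12 h control.

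Most transcripts listed for the 2 branch groups were higher with tunicamycin, by gene lists chosen with earlier results of these data known. The lists were not built to tell the branches apart, and the activity of each branch was not tested. Of 16 tested genes of the XBP1 and ATF6 branch 16 were higher, beside 11.1% of all tested genes called higher. The list's median log2 fold change was 1.77, and all 16 stayed higher on leaving out any 1 array. The 4 with the largest changes were Sdf2l1 (4.16), Herpud1 (3.62), Sel1l (2.65) and Dnajc3 (2.56), and the value of Manf, 2.34, lay above the list's median. Of 15 tested genes of the ATF4 and CHOP branch 12 were higher and 0 lower, with a median of 1.05, and 10 to 11 were higher on leaving out 1 array. Manf lay above this median too. The largest of this list were Ppp1r15a (3.38), Trib3 (3.30), Ddit3 (3.18) and Chac1 (2.98). Of the measured members that this branch is known to drive, Fgf21 was under the noise level on every array. The brightest probe set of Stc2 straddled that level at 0.655 to 1.42 times. Whether the branch drove either gene here was not tested.

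**Figure D4:**
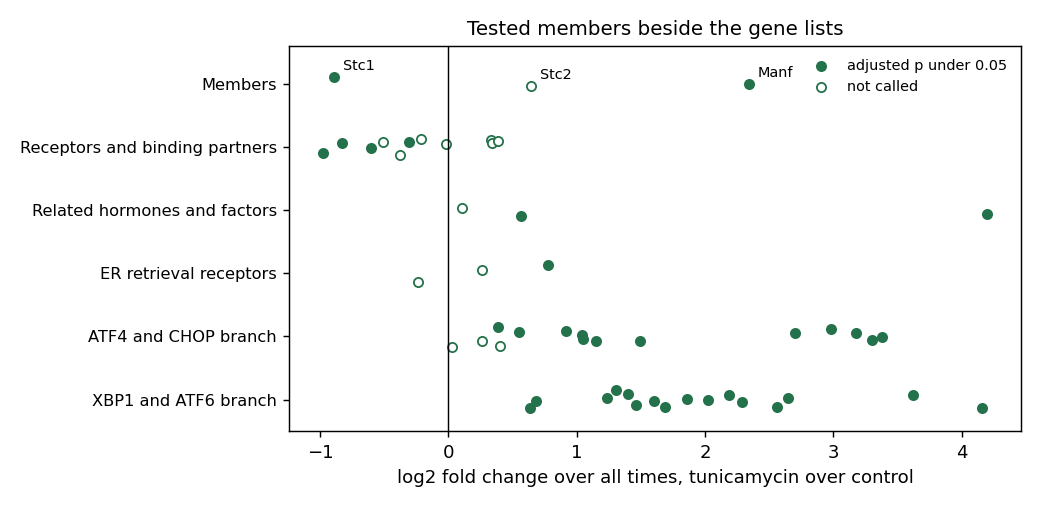
Log2 fold change over all times (x axis) of the 3 tested members and of the tested genes of 5 lists, with 1 point per gene and filled points for genes called at an adjusted p under 0.05. Manf, at 2.34, lies within the range of the XBP1 and ATF6 branch and also of the ATF4 and CHOP branch. Stc1 lies at -0.89. Of the XBP1 and ATF6 branch, 16 of 16 genes are filled and to the right of 0.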

How the data were processed

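Biotinylated cRNA of each of 8 samples was put on an Affymetrix array, per the labels' protocols. The authors deposited 1 linear intensity per probe set and array, some below 0; which software scaled them is not stated in those sources. The authors' deposited comparison table gives log10 ratios with a p-value for every time. Their direction is not stated and was read as tunicamycin over control, because they correlated across genes with the effects computed here (r = 0.816 to 0.926).

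Arrays were quantile normalized, values below 0 set to 0, and log2(value + 2.956) taken, 2.956 being the 10th percentile of positive deposited values. Symbols came from the platform annotation (34958 probe sets with 1 symbol, 932 with several, 9211 with none), updated through RefSeq for 34754. Only probe sets with 1 symbol were used to represent genes. Genes at or above the 40th percentile of mean log2 value (4.19) were tested in limma 3.58.1 (R 4.3.3) with an intensity trend and Benjamini-Hochberg adjustment over 10916 genes. The effect over all times came from a model of time and treatment, with 4 residual degrees of freedom. Effects at single times came from 1 mean per group, with 2 residual degrees of freedom, so lone arrays are assumed to vary like the 8 h controls and 12 h tunicamycin arrays. Tested on simulated data of 10916 genes, the model over all times recovered 66% of genes changed by 1 on the log2 scale and 89% of those changed by 2. These shares are for that model alone and are not split by intensity.

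The members, gene lists and noise rule were chosen with earlier results of these data known. Named genes were all members, the 3 genes most correlated with each tested member, and up to 4 called genes of each list by size of change. Markers are named where they describe the cells. Klb, Fgfr1, Kdelr1, Kdelr2, Fgf23 and Cdnf were named outside this rule, after their values were seen. Every value column was matched to a sample. Precision is limited by the small number of arrays. Figures used matplotlib 3.10.9 in Python 3.11.15.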

Additional observations from a re-analysis of the deposited data

Results flagged for a closer look

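The effect of tunicamycin on Manf differed between 4 h, 8 h and 12 h by a test of the difference itself (limma's moderated F test, adjusted p = 0.0414), as normalized here. The call was lost in 10 of 12 alternatives, namely the deposited scaling (adjusted p = 1), median centring (0.15), no filter (0.213), every probe set on its own (0.207), the mean of all probe sets (0.101), no intensity trend (0.307) and each of the 4 left-out replicates (0.0583 to 0.109). The log2 fold change was 1.59 at 4 h, 2.61 at 8 h and 2.63 at 12 h, with 1 tunicamycin array at each of the first 2 times and 2 at the last. On the 4 h tunicamycin array the beta-actin 3' to 5' ratio was 2.81, against 1.51 to 1.82 on the control arrays, and its part in the lower 4 h value was not tested. No group holds more than 2 arrays, so no array was compared with the rest of its group.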

How the results depend on the processing

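Arrays of the same time and replicate number form 3 pairs, but lone arrays of a group give no deviation by which to check that the numbers pair cultures. With time and number as a replicate block, chosen after seeing the data and with 2 residual degrees of freedom, Manf was at 2.24 (adjusted p = 0.00327), Stc1 at -0.85 (0.0322) and Stc2 at 0.70 (0.26), and 439 genes were called instead of 2264. Manf over all times was called under all 19 alternatives (1.99 to 2.63), and at 8 h and 12 h under all 12 each. Several of the 19 share an estimate, because leaving out a group's only array takes its time out of the treatment effect. Stc1 over all times was called under 17 of 19 and lost with every probe set tested on its own (-0.89, adjusted p = 0.0582) or the mean of all probe sets (-0.73, 0.123), leaving 1 member called in each. Members called at 4 h numbered 0, not 1, with the deposited scaling, no filter, every probe set or no intensity trend. At 8 h and 12 h they numbered 1, not 2, in these 4 and with the mean of all probe sets, since Stc1 was lost. Leaving out replicates gave 1 to 2 at 8 h. For the difference between times the count was 0, not 1, in these 5 settings, with median centring (Manf, adjusted p = 0.15) and in all 4 left-out replicates (0). Stc2 was uncalled throughout and reversed once, at -0.20 at 4 h with the deposited scaling, where the median of all genes was -0.31 over all times. Near the detection limit were 5 probe sets under either noise percentile. Signal over background limits Fgf21, Adm2 and Stc2.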
